A study of Rattus norvegicus with 30 samples.

Results

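Interferon-stimulated genes were followed in the lungs of rats with severe acute pancreatitis-associated acute lung injury. The list held 46 genes, and a row under the listed symbol was found for 44 of them among the 22914 genes of the count table. Oas1b and Xaf1 had no row under those symbols. All 44 members passed the filter on low counts, as 15934 genes did, and each had a mean of at least 1 FPKM (fragments per kilobase of transcript, scaled to the mapped fragments of each library) over the 30 libraries.

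Interferons are secreted proteins, and those of type I are released after cells sense viral or microbial nucleic acid. Type I interferons act through the IFNAR receptor on nearly every cell and type II interferon through the IFNGR receptor. JAK kinases then phosphorylate STAT proteins, which enter the nucleus with or without IRF9 and switch on the interferon-stimulated genes. The products sense RNA and DNA, degrade or block viral RNA, load antigen and limit the response itself, and in the lung they are a main early defence of epithelium and macrophages.

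The libraries came from whole lung tissue of male Sprague Dawley rats, 8 weeks old, with 3 rats in each of 10 groups. Sham rats were operated controls (pancreas turned slightly), and Con rats received sterile saline into the biliopancreatic duct. This follows the labels and the treatment protocol, whereas a passage of the study's text counts Con among the rats with SAP. SAP, DEX and Emo rats all received 5.0% sodium taurocholate, a bile salt, into that duct, which injures the pancreas and then the lung. DEX rats were also given dexamethasone, a synthetic glucocorticoid, by vein at 10 mg/kg, and Emo rats were also given emodin, an anthraquinone of rhubarb root, into the stomach. The emodin dose is given as 40 mg/kg in the treatment protocol and as 10 mg/kg in the sample descriptions. Drugs were given 2 and 12 h after the operation, so the lungs taken at 6 h had followed 1 dose and those taken at 24 h had followed both. Every group without dexamethasone received saline by vein, and every group without emodin received the carboxymethylcellulose vehicle into the stomach.

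Reads on genes ranged from 16813949 in SAP-6h replicate 3 to 34692306 in SAP-6h replicate 2. In the study's supplement the share of uniquely mapped reads was lower in every SAP, DEX and Emo library than in every Sham and Con library. The cause of that split was not tested. A difference of SAP, DEX or Emo from Sham therefore cannot be told apart from it. The tissue label was checked with Sftpc, Ager and Scgb1a1, which mark alveolar type 2, alveolar type 1 and club cells. Sftpc lay between 12733 and 30191 FPKM, Ager between 368 and 1893 FPKM and Scgb1a1 between 16320 and 46742 FPKM. Fkbp5, a gene that glucocorticoids induce, lay between 157 and 216 FPKM in the 6 DEX rats and between 21.9 and 109.8 FPKM in the other 24. In bulk tissue, fewer cells of a type and less RNA per cell cannot be told apart.

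A few rats stood far above the rest in nearly all members, and they did not all belong to one group. The level of the list in a rat is given here as the median over the 44 members of the log2 deviation, log2(FPKM + 1) minus the mean of that gene over 30 libraries. It was 2.63 in Emo-6h replicate 3, where the other Emo-6h rats had -0.17 and -0.21. It was 1.58 in Con-24h replicate 1, against -0.52 and -0.66 in the other Con-24h rats, and 0.60 in SAP-24h replicate 1, against -0.61 and -0.49. The 3 Emo-24h rats were all above the mean of the libraries, at 1.64, 0.56 and 1.69. The 3 DEX-24h rats were all below it, at -0.63, -0.81 and -0.85. In the remaining groups the rats lay between -0.80 and 0.31. The median over 12369 expressed genes, taken the same way, stayed between -0.17 and 0.11 in every library.

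**Figure D1:**
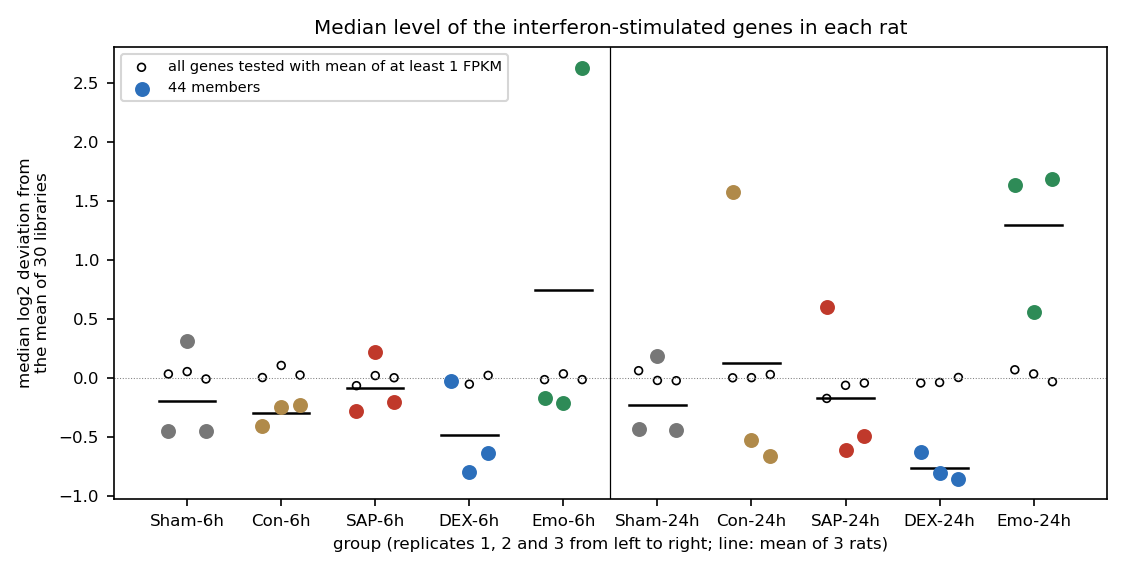
Median log2 deviation of the 44 interferon-stimulated genes in each of 30 rats (filled points, coloured by treatment; y axis in log2 units) by group on the x axis, with the mean of 3 rats as a line and the median of all expressed genes as open circles. Emo-6h replicate 3 and Con-24h replicate 1 stand at 2.63 and 1.58, far from the other rats of their groups, while the 3 Emo-24h rats lie at 0.56 to 1.69 and the 3 DEX-24h rats at -0.85 to -0.63.

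Emo-6h replicate 3 was the highest library of all 30 for 41 of 44 members. The exceptions were Oas2, highest in Con-24h replicate 1, and Eif2ak2 and Herc6, highest in Emo-24h replicate 3. In that rat all 44 members were above the other Emo-6h rats, by 1.94-fold for Irf1 to 98.7-fold for Mx1, with a median of 8.49-fold. The median over all genes in the same comparison of FPKM was 0.994-fold, and 4.09% of genes were at least 2-fold higher. Con-24h replicate 1 was the highest of its group for 43 of 44 members, Ifit1 excepted, with a median of 5.15-fold and up to 54.1-fold for Mx1. There 39 members were at least 2-fold above the other rats, as were 3.38% of all genes. SAP-24h replicate 1 was the highest of its group for 42 of 44, with a median of 2.65-fold. In that rat 31 members were at least 2-fold above the others, as were 3.90% of all genes. The 4 highest libraries were Emo-6h replicate 3, Con-24h replicate 1 and Emo-24h replicates 1 and 3 for 33 of 44 members. The share of all genes with these 4 libraries highest was not counted.

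The spread between rats of the same group was larger in the members than in other genes. The median SD of log2(FPKM + 1) over members was 1.66 in Emo-6h, 1.24 in Con-24h, 0.66 in SAP-24h and 0.62 in Emo-24h. In the other 6 groups it ran from 0.17 in Con-6h to 0.50 in Sham-6h. The median SD of all genes was 0.13 to 0.21. Counts of calls are also given without Emo-6h replicate 3 and Con-24h replicate 1, and without these and SAP-24h replicate 1 (the 3 high rats), a choice made after their values were seen. These rats were left out because the members were extreme in them. That lowers the spread estimated for these same genes more than for other genes. A rise in calls in such a fit is thus partly built in and is no separate support.

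**Figure D2:**
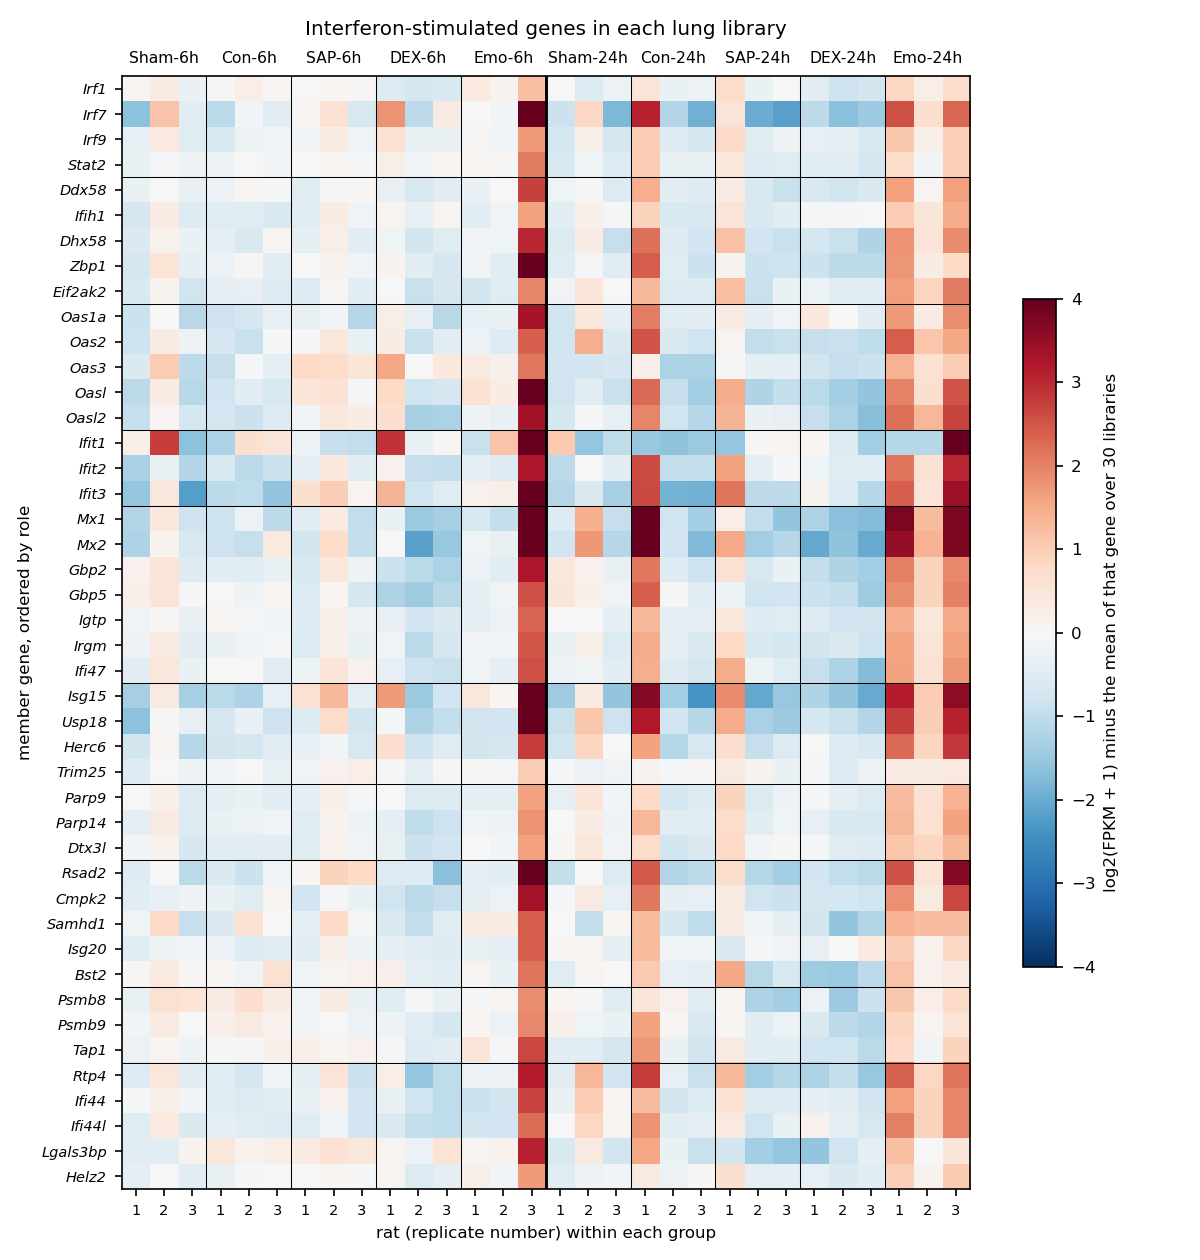
Each row is 1 of the 44 members, ordered by role, and each column is 1 rat, grouped by treatment and time. Colour shows log2(FPKM + 1) minus the mean of that gene over 30 libraries (red above, blue below, colours saturate at the ends of the scale). Emo-6h replicate 3 and Con-24h replicate 1 form red columns through nearly all rows. The median deviation over the members was 0.56 to 1.69 in the Emo-24h rats and -0.85 to -0.63 in the DEX-24h rats. That over all expressed genes lay between -0.17 and 0.11 in every library.

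The promoters were examined because the factors that carry interferon signals bind short DNA elements near the start of these genes. RefSeq promoter windows of the GRCr8 rat assembly, from 250 bases before to 50 bases after the gene start, were matched by symbol for 34 of the 44 members. No window was matched for Ddx58, Dhx58, Ifit1, Ifit2, Isg15, Mx2, Oas2, Rtp4, Usp18 and Zbp1. The interferon-stimulated response element (ISRE), bound by IRFs and by the complex that holds STAT2 and IRF9, was searched as GAAANNGAAA on both strands. It was found in 21 of the 34 windows (61.8%), against 3.92% of the 33469 windows of the table. The gamma-activated sequence (GAS), bound by STAT dimers, was searched as TTCNNNGAA, which reads the same on both strands. It was found in 11 of 34 windows (32.4%), against 8.87% of all windows. Both were present in 7 windows and neither in 9, and an ISRE match overlapped a GAS match in 1. Since the members were chosen as interferon-stimulated genes, these shares are a description. A match to letters is not a bound site.

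Shown here are the windows of the 5 members called in more than 1 comparison below, Irf1, Gbp2, Gbp5, Oas3 and Cmpk2. Irf1 lies at chr10:38417685-38417984 on the plus strand, Gbp2 at chr2:234005477-234005776 on the plus strand and Gbp5 at chr2:233910749-233911048 on the plus strand. Oas3 lies at chr12:41439482-41439781 on the plus strand and Cmpk2 at chr6:48802600-48802899 on the plus strand. Each is written 5′ to 3′ along the gene, and capitals mark the GAS match in Irf1 and the ISRE match in Gbp2, Gbp5 and Oas3. These letters were not found in the Cmpk2 window.
Irf1: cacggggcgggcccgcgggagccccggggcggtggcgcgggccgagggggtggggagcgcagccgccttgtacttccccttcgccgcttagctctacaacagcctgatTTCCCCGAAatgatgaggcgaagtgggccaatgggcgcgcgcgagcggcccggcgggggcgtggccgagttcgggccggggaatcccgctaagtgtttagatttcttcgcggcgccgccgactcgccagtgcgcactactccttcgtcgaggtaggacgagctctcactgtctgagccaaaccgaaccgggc
Gbp2: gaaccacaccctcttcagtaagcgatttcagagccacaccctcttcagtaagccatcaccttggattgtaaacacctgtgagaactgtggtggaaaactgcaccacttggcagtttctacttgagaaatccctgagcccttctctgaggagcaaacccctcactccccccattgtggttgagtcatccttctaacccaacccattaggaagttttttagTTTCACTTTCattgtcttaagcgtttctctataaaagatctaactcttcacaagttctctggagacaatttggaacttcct
Gbp5: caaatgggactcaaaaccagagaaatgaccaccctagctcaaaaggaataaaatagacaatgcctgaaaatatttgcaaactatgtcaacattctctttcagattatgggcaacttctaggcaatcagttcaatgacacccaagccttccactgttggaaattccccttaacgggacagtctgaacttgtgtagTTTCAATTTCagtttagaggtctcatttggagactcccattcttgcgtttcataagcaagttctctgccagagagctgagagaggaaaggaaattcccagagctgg
Oas3: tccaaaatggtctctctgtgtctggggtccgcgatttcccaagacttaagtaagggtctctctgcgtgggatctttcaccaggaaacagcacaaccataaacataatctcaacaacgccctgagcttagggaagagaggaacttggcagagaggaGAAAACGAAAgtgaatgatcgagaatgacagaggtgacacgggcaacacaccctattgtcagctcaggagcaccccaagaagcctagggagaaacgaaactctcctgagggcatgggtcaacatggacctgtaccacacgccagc
Cmpk2: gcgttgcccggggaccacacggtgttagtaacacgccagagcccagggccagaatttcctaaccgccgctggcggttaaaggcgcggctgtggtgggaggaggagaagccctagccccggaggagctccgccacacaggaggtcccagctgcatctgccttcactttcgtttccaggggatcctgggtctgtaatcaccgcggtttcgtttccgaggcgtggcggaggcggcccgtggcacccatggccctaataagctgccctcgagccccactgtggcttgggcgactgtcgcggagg

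Counted from the gene start, the ISRE matches began at -31 in Gbp2, at -56 in Gbp5 and at -95 in Oas3. Over all 21 members with a match they began between -151 in Oasl2 and 26 in Ifi44. Oas1a and Bst2 each had 2 matches that overlapped each other. The windows of Tap1 and Psmb9, neighbours read in opposite directions, shared 44 bases. In Emo-24h against DEX-24h the median log2 fold change was 2.16 over the 21 members with a match (0.62 to 4.39) and 1.59 over the 13 without (0.60 to 5.46), and the ranges overlapped. Mx1, with the largest change of these 34 members, had neither motif in its window.

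In the tests below, a gene is called where its fold change is at least 2 and its p, from the quasi-likelihood test of edgeR and adjusted by Benjamini-Hochberg over all 15934 genes, is under 0.05. The labels number the samples of a group without further detail, each is taken as the lung of 1 rat, and p-values measure the spread between these samples. For genes with close copies (Mx1 and Mx2, Oas1a, Oasl and Oasl2, the Ifit genes, Gbp2 and Gbp5, Igtp, Irgm and Ifi47), reads that map to more than 1 place had been discarded per the study's methods, so their levels are less certain. Shares of all genes given for an unadjusted p or for an alternative fit count both directions, and shares of called genes are those of edgeR where DESeq2 is not named with them. Ranges without 1 rat are over the fits that each leave out 1 rat of the compared groups.

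The transcription factors were among the most abundant members. Irf7, which amplifies type I interferon production, had a mean of 129 FPKM but a median of 33.4 FPKM, with 2136 FPKM in Emo-6h replicate 3. Its range elsewhere was 8.09 FPKM in SAP-24h replicate 3 to 345 FPKM in Con-24h replicate 1. Irf1, an early interferon gamma target, was the steadiest of the strongly expressed members, at 21.7 to 91.8 FPKM. Irf9 and Stat2, which act together in an ISRE-binding complex, had means of 28.6 and 27.5 FPKM and their highest values, 86.4 and 107 FPKM, in Emo-6h replicate 3.

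Among the effectors the restriction factor Bst2, which tethers budding virions to the membrane, had the highest mean of the list, 492 FPKM, with 1839 FPKM in Emo-6h replicate 3 and 149.96 FPKM in DEX-24h replicate 2. Lgals3bp, a secreted glycoprotein, followed Irf7 with a mean of 99.4 FPKM. The ubiquitin-like modifier Isg15 averaged 53.6 FPKM, from 2.62 FPKM in Con-24h replicate 3 to 545 FPKM in Emo-6h replicate 3. In all, 20 members had a mean of at least 20 FPKM. Besides the ones above they were Ifit3 (mean 40.0 FPKM), which binds foreign RNA with its partners, the immunoproteasome subunits Psmb9 (37.1 FPKM) and Psmb8 (23.1 FPKM), and the peptide transporter Tap1 (22.2 FPKM). They also included the antiviral dynamin-like GTPases Mx2 (32.9 FPKM) and Mx1 (25.5 FPKM), and the immunity GTPases Ifi47 (30.3 FPKM) and Gbp2 (30.3 FPKM). The others were Oas1a (30.7 FPKM) and Oasl2 (26.2 FPKM) of the 2'-5' oligoadenylate synthetase family, which activates an RNA-cleaving enzyme, the ISG15-removing protease Usp18 (22.9 FPKM), the receptor chaperone Rtp4 (21.9 FPKM) and the exonuclease Isg20 (20.8 FPKM). The 24 members below that mean ranged from Oas2 at 2.18 FPKM to Ifit2 at 18.4 FPKM.

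**Figure D3:**
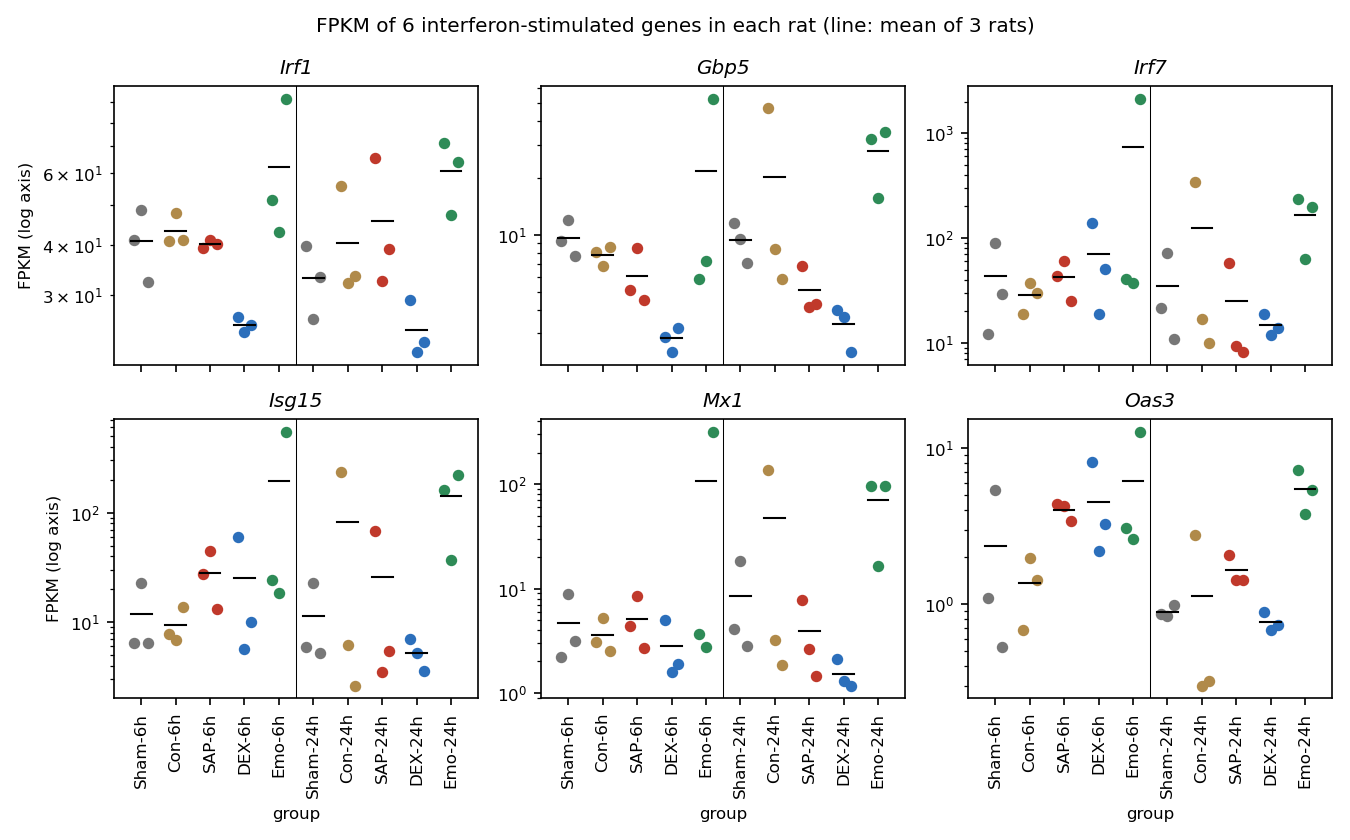
FPKM (y axis, log scale) of Irf1, Gbp5, Irf7, Isg15, Mx1 and Oas3 in each rat (points, coloured by treatment) by group, with the mean of 3 rats as a line. In every panel Emo-6h replicate 3 is the highest point (317 FPKM for Mx1, 91.8 FPKM for Irf1), and the Emo-24h rats lie above the DEX-24h rats.

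Emodin against dexamethasone at 24 h was the comparison in which most members were called. Of 44 members, 22 were called higher in Emo-24h than in DEX-24h and none lower, where 3.82% of all genes tested were called higher. All 44 fold changes were positive, with a median log2 fold change of 2.48 against 0.01 over all genes. Every Emo-24h rat was above every DEX-24h rat in 41 of 44 members, a separation that 18.6% of all genes showed. The 3 members without it were Oas1a, Ifit1 and Isg20.

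The 3 highest fold changes among the called members were those of Mx2, Mx1 and Oas2. Mx2 had 123, 27.8 and 145 FPKM in the Emo-24h rats and 1.61, 2.58 and 1.7 FPKM in the DEX-24h rats. The groups lay apart, with the lowest Emo-24h value in replicate 2. The log2 fold change was 5.59 (SE 1.63, adjusted p = 0.0332 by edgeR). Mx1 had 96.9, 16.5 and 97.0 FPKM in Emo-24h and 2.1, 1.29 and 1.17 FPKM in DEX-24h, a log2 fold change of 5.46 (SE 1.62, adjusted p = 0.0355 by edgeR). Again replicate 2 was the lowest Emo-24h rat and still above all DEX-24h rats. Oas2, which makes 2'-5' oligoadenylates on double-stranded RNA, had 11.2, 3.84 and 5.55 FPKM in Emo-24h and 0.19, 0.23 and 0.12 FPKM in DEX-24h. Its log2 fold change was 5.15 (SE 1.50, adjusted p = 0.0332 by edgeR).

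The 3 smallest fold changes among the called members were those of Irf1, Psmb8 and Dtx3l. Irf1 had 71.2, 47.4 and 63.9 FPKM in Emo-24h and 29.2, 21.7 and 23.0 FPKM in DEX-24h. Its log2 fold change was 1.24 (SE 0.28, adjusted p = 0.00651 by edgeR), the smallest adjusted p of the list. Psmb8 had 44.7, 24.6 and 35.5 FPKM against 17.1, 6.88 and 10.9 FPKM, a log2 fold change of 1.52 (SE 0.47, adjusted p = 0.0427 by edgeR). Dtx3l, a ubiquitin ligase that acts with Parp9, had 13.1, 10.8 and 15.5 FPKM against 5.34, 3.72 and 3.61 FPKM, a log2 fold change of 1.57 (SE 0.46, adjusted p = 0.0348 by edgeR). In each of these genes the rats of the 2 groups did not overlap.

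By role, all 7 GTPases were called (Mx1, Mx2, Gbp2, Gbp5, Igtp, Irgm and Ifi47), with a median log2 fold change of 2.92. In the oligoadenylate synthetase family 4 of 5 were called (Oas2, Oas3, Oasl and Oasl2), and in the group of nucleotide, nuclease and membrane restriction factors 4 of 5 (Rsad2, Cmpk2, Samhd1 and Bst2). The sensors Ddx58 and Zbp1 were called among 5 sensors, Parp14 and Dtx3l among 3 genes of the PARP group, Psmb8 among 3 antigen-processing genes, Irf1 among 4 transcription factors, and Helz2 among 5 other induced genes. None of the 4 ISG15 pathway genes or the 3 IFIT genes was called by edgeR, although their median log2 fold changes were 3.30 and 3.00, above those of several roles with calls. Isg15 had 162, 36.6 and 223 FPKM in Emo-24h against 6.98, 5.21 and 3.58 FPKM in DEX-24h. DESeq2 called 34 members, the 22 of edgeR and 12 more, among them Isg15, Usp18, Herc6 and Ifit2, and 4.29% of all genes.

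All 30 libraries share 1 estimate of the spread in the model, so leaving out rats in which the members were extreme lowers it for these genes. Without Emo-6h replicate 3 and Con-24h replicate 1, which belong to neither group, 40 members were called, the same 22 included, where 5.66% of all genes were called in either direction. Without SAP-24h replicate 1 as well, 41 were called, where the share of all genes was 6.02%. Leaving out 1 rat of the compared groups lowered the count to between 1 (without DEX-24h replicate 3) and 12 (without Emo-24h replicate 2), with the called members still higher in Emo-24h. The share of all genes was 2.53% and 2.39% in these fits, so without DEX-24h replicate 3 the 1 of 44 members was near the background. Irf1 kept its call in 6 of these 6 fits, Gbp5 in 5, and Oasl2 and Samhd1 in 4. Mx1, Mx2, Dtx3l, Zbp1, Oas3, Oasl, Irgm and Bst2 kept it in 0, and Oas2 and Psmb8 in 1. With the replicate number as a block Psmb8, Bst2, Ddx58, Irgm, Rsad2 and Zbp1 were not called. The median log2 fold change of the members lay between 1.92 and 2.71 in the 6 fits.

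**Figure D4:**
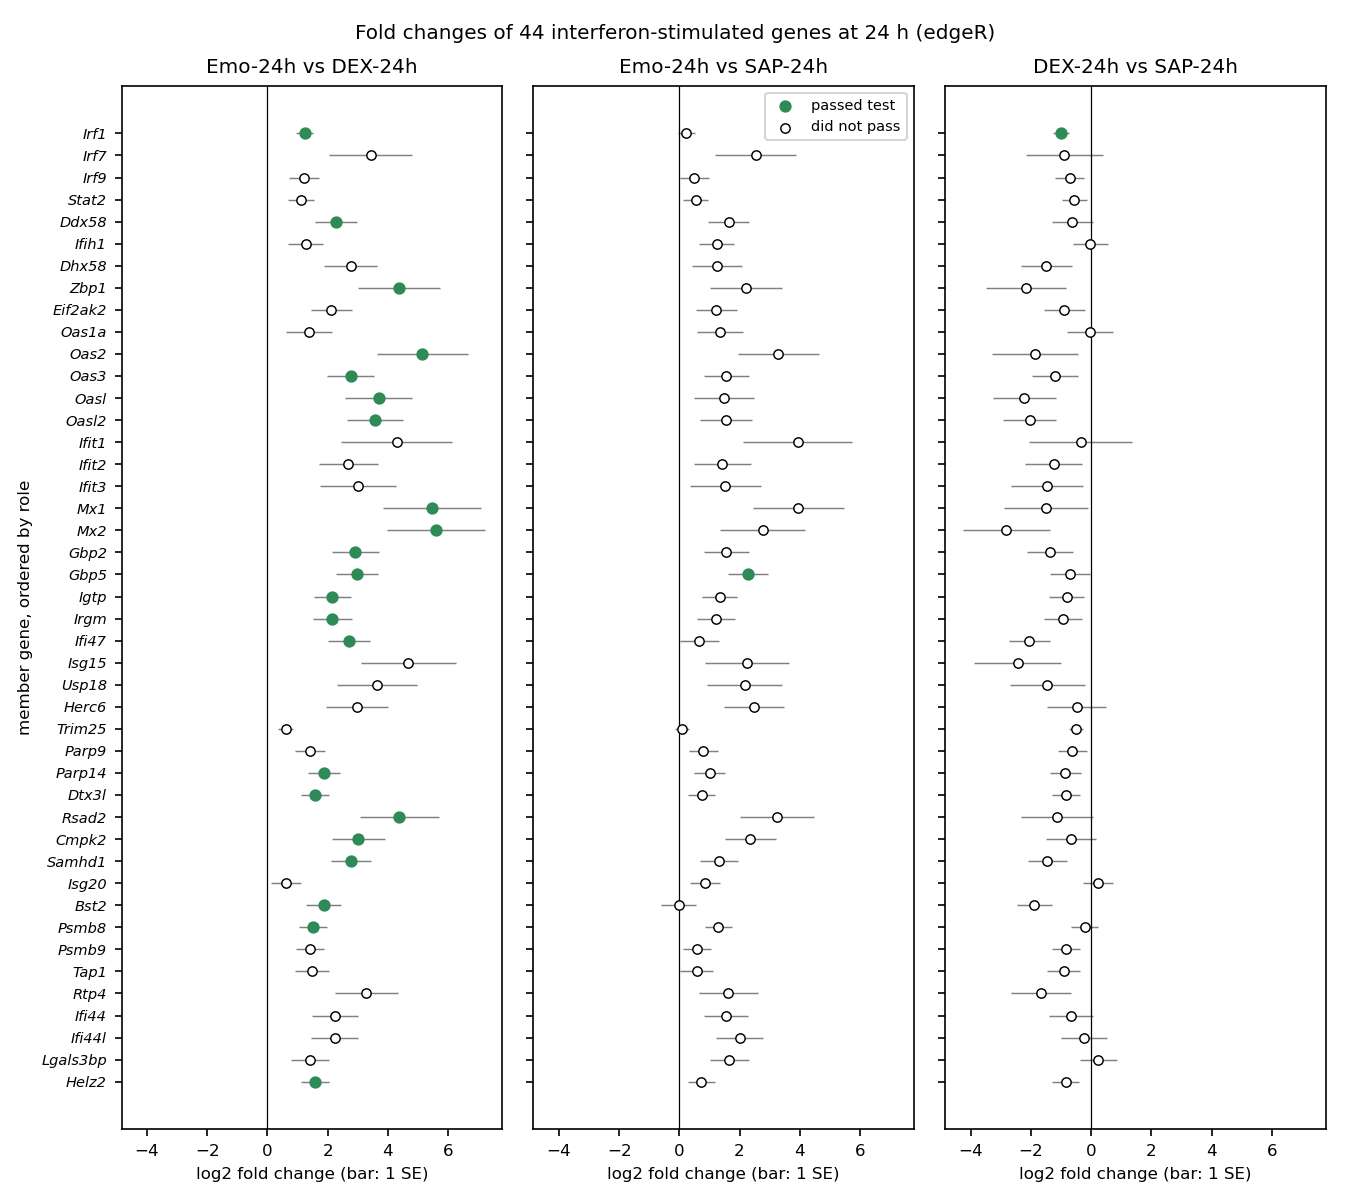
Log2 fold changes (x axis, bar 1 SE, edgeR) of the 44 members, ordered by role on the y axis, in Emo-24h against DEX-24h, Emo-24h against SAP-24h and DEX-24h against SAP-24h, which share groups. Filled points passed the test, 22 in the first panel (median of all members 2.48), only Gbp5 in the second (median 1.46) and only Irf1 in the third (median -0.90).

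Markers of lymphocytes also differed between these groups. All 6 T cell markers (Cd3d, Cd3e, Cd3g, Cd2, Cd8a and Lck) were called higher in Emo-24h than in DEX-24h, as were 5 of 5 B cell and plasma cell markers, 3 of 6 natural killer cell markers and 3 of 4 tested markers of plasmacytoid dendritic cells. Irf8 stands both in the plasmacytoid dendritic cell list and in the interferon pathway list below, so its calls are counted in both. Of the 6 glucocorticoid targets, Tsc22d3 had 2 rows in the table, and 5 of the 7 rows were called lower, as was 1 of 6 alveolar type 2 markers. The summed FPKM of the T cell markers was 72.3, 63.3 and 18.0 in Emo-24h and 14.8, 6.69 and 7.32 in DEX-24h. That of the B cell and plasma cell markers was 66.8, 41.8 and 37.97 against 8.68, 5.44 and 12.2. Within Emo-24h the order of the rats was not that of the members. Emo-24h replicate 3 had the highest median level of the interferon-stimulated genes in its group, 1.69, and the lowest T cell sum, 18.0. The natural killer cell sum was 73.4, 72.9 and 15.1 in Emo-24h and 18.3, 8.65 and 4.38 in DEX-24h. Gzmb was at 0 in the Emo-24h rats, as in every rat of Sham-6h, Con-6h, DEX-6h, Sham-24h and SAP-24h. The part of these cells in the result was not tested.

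In emodin against the untreated model at 24 h, of 44 members, 43 had positive fold changes in Emo-24h against SAP-24h, Bst2 excepted, with a median log2 fold change of 1.46 against 0.02 over all genes, and 17 were higher at an unadjusted p under 0.05, which 26.3% of all genes reached. Without 1 rat, the median lay between 1.03 and 2.13 and the members at that p numbered 2 (without SAP-24h replicate 2 or 3) to 36 (without SAP-24h replicate 1). Only Gbp5, a guanylate-binding protein that coats microbes and promotes inflammasome activity, was called higher, where 1.93% of genes were. Its values were 32.1, 15.7 and 35.1 FPKM in Emo-24h and 6.79, 4.14 and 4.28 FPKM in SAP-24h, with no overlap. The log2 fold change was 2.28 (SE 0.68, adjusted p = 0.0398 by edgeR), and the call of Gbp5 was lost when any 1 of the 6 rats was left out, with an adjusted p of up to 0.102. With the compared groups alone in the fit neither Gbp5 nor any other gene was called. In 17 of 44 members every Emo-24h rat was above every SAP-24h rat, as in 23.0% of all genes.

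SAP-24h replicate 1 was above the other SAP-24h rats in 42 members, for instance with Isg15 at 68.1 FPKM against 3.52 and 5.44 FPKM, and Bst2 at 1234 FPKM against 194 and 267 FPKM. Without Emo-6h replicate 3 and Con-24h replicate 1, 14 members were called higher in Emo-24h than in SAP-24h, where 3.71% of all genes were called in either direction. With SAP-24h replicate 1 left out too, 33 were called, where 2.77% of genes were. The 11 then not called were Ifit1, Irf1, Irf9, Isg20, Oas1a, Oas3, Psmb9, Samhd1, Stat2, Tap1 and Trim25. DESeq2 on all libraries called 5, Gbp5, Cmpk2, Mx1, Psmb8 and Rsad2, and 3.05% of all genes. Of the marker lists, 2 of 6 T cell, 1 of 6 natural killer cell and 2 of 4 plasmacytoid dendritic cell markers were called higher in Emo-24h. Of the B cell and plasma cell markers 0 of 5 were called. Called lower were 1 of 6 neutrophil and 1 of 6 alveolar type 2 markers. In SAP-24h the T cell sum was 14.8, 13.7 and 18.9, highest in replicate 3, and the natural killer cell sum was 22.8, 15.4 and 17.4, highest in replicate 1. Their part in the result was not tested.

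Emo-24h was also compared with the operated controls, a comparison added after values were seen. The libraries of these 2 groups also differ in their share of uniquely mapped reads. All 44 members had positive fold changes against Sham-24h, with a median log2 fold change of 1.58, and 30 were higher at an unadjusted p under 0.05, which 3.0% of all genes reached. That count was 8 (without Emo-24h replicate 3) to 34 (without Emo-24h replicate 2) without 1 rat, with medians of 1.31 to 1.86. In 31 of 44, every Emo-24h rat was above every Sham-24h rat, where 5.49% of all genes showed this. No member was called by edgeR, as was no other gene (0.0% of genes), nor was any by DESeq2 (0.0%). Oas3 had the smallest p, with 7.23, 3.81 and 5.44 FPKM in Emo-24h and 0.86, 0.84 and 0.99 FPKM in Sham-24h, with a log2 fold change of 2.58 (SE 0.79, adjusted p = 1.00 by edgeR). Without the 3 high rats of other groups, 17 members were called higher, where 0.186% of all genes were called. As these rats were picked for their high members, that share is not an even background for the 17.

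Irf1 was the member called lower with dexamethasone at 24 h. Its values were 29.2, 21.7 and 23.0 FPKM in DEX-24h and 65.7, 32.6 and 39.0 FPKM in SAP-24h, so that each DEX-24h rat was below each SAP-24h rat. The log2 fold change was -1.004 (SE 0.28, adjusted p = 0.0267 by edgeR). No other member was called, where 2.55% of genes were called lower, though 42 of 44 members had lower fitted levels and the median log2 fold change was -0.90 against 0.00 over all genes. The exceptions were Isg20 and Lgals3bp. Without SAP-24h replicate 1 the median was -0.13, with 26 of 44 lower, and without another rat it was -1.17 to -0.84. In 12 members every DEX-24h rat was below every SAP-24h rat, against 8.65% of all genes. Irf1 kept its call in 3 of 6 fits without 1 rat and lost it without SAP-24h replicate 1, without DEX-24h replicate 2 and without DEX-24h replicate 3. It was also lost with the replicate number as a block and with the compared groups alone, where no member was called and 3.61% and 1.49% of all genes were. Without Emo-6h replicate 3 and Con-24h replicate 1, 5 other members were called lower (Bst2, Gbp2, Ifi47, Oasl2 and Samhd1), and Irf1 was not, since its log2 fold change was -0.99 at an adjusted p of 0.00805 by edgeR, where 4.03% of all genes were called. With SAP-24h replicate 1 out as well, none was (3.2% of all genes), and that of Irf1 was -0.59. Of the marker lists, 3 of 5 B cell and plasma cell, 1 of 4 plasmacytoid dendritic cell and 1 of 6 neutrophil markers were called lower in DEX-24h. The neutrophil list had the lowest median log2 fold change of the marker lists, -2.47, with a summed FPKM of 2215, 1016 and 2973 in DEX-24h and 12514, 4462 and 16330 in SAP-24h. The part of these cells was not tested.

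Against Sham-24h, a comparison added later, 39 of 44 members had lower fitted levels in DEX-24h, with a median log2 fold change of -0.69 (-0.31 without Sham-24h replicate 2, and -0.93 to -0.57 without another rat). None was called by edgeR or DESeq2, where 4.15% and 3.57% of genes were called in either direction, and 2 were lower at an unadjusted p under 0.05, which 19.9% of all genes reached. In 20 of 44 members every DEX-24h rat was below every Sham-24h rat, against 15.9% of all genes. Oas2 had the smallest p, with 0.19, 0.23 and 0.12 FPKM in DEX-24h and 0.31, 5.18 and 0.51 FPKM in the Sham-24h rats, a log2 fold change of -3.43 (SE 1.43, adjusted p = 0.166 by edgeR). Of the marker lists, 6 of 6 T cell, 4 of 5 B cell and plasma cell, 3 of 6 natural killer cell and 3 of 4 plasmacytoid dendritic cell markers were called lower in DEX-24h than in Sham-24h. Called higher were 1 of 6 macrophage and monocyte markers, 1 of 6 alveolar type 2 markers and 2 of the 7 rows of glucocorticoid targets. The part of these cells was not tested. Without the 3 high rats 7 members were called lower, Bst2, Gbp2, Gbp5, Mx1, Mx2, Oas2 and Zbp1, where 4.85% of all genes were.

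At 6 h all 44 members had positive fold changes in Emo-6h against SAP-6h, with a median log2 fold change of 1.69, and 30 were higher at an unadjusted p under 0.05, which 13.5% of all genes reached. This rested on Emo-6h replicate 3, without which 15 of 44 fold changes were positive, the median was -0.15 and no member reached that p. On all rats edgeR and DESeq2 called none, where they called 0.0251% and 0.1% of genes. Oas1a had the smallest p, with 16.8, 17.5 and 219 FPKM in Emo-6h and 17.4, 19.6 and 9.27 FPKM in SAP-6h. Its log2 fold change was 2.45 (SE 0.80, adjusted p = 0.23 by edgeR). Replicates 1 and 2 lay within the SAP-6h values, and replicate 3 lay far above them. Irf1 was the one member in which every Emo-6h rat was above every SAP-6h rat, a separation that 11.4% of all genes showed.

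Against DEX-6h, 4 members were called higher in Emo-6h, where 0.759% of genes were, and all 44 fold changes were positive with a median of 2.14 (log2). With Emo-6h replicate 3 left out, 27 were positive and the median was 0.12. Irf1 had 51.5, 43.1 and 91.8 FPKM in Emo-6h and 26.5, 24.3 and 25.4 FPKM in DEX-6h, a log2 fold change of 1.29 (SE 0.28, adjusted p = 0.0135 by edgeR). Gbp5 had 5.86, 7.22 and 52.6 FPKM against 2.87, 2.38 and 3.22 FPKM, a log2 fold change of 2.96 (SE 0.70, adjusted p = 0.0234 by edgeR). In these and in the 2 genes that follow, all Emo-6h rats were above all DEX-6h rats, and replicate 3 was the highest. Gbp2 had 17.4, 14.9 and 202 FPKM against 10.9, 9.13 and 7.95 FPKM, a log2 fold change of 3.07 (SE 0.79, adjusted p = 0.0359 by edgeR). Cmpk2, a mitochondrial nucleotide kinase encoded beside Rsad2, had 3.12, 3.54 and 53.5 FPKM against 2.08, 1.58 and 1.84 FPKM, a log2 fold change of 3.46 (SE 0.89, adjusted p = 0.0355 by edgeR). Without Emo-6h replicate 3 none of the 4 was called, and the log2 fold change of Gbp2 fell to 0.76 and that of Cmpk2 to 0.84. Without Emo-6h replicate 1, 7 members were called, where 0.779% of all genes were. Without Emo-6h replicate 2, 19 were called, where 1.72% of genes were, and without any 1 DEX-6h rat none was. With the compared groups alone in the fit none of the 4 was called (0.597% of genes), and with the replicate number as a block Cmpk2 was not (1.22%). Without the 3 high rats, Gbp5 alone was called (1.33%). DESeq2 called 22, where 1.69% of genes were called. Of the marker lists, 1 of 6 natural killer cell markers was called higher in Emo-6h than in DEX-6h and 1 of the 7 rows of glucocorticoid targets lower.

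Several marker lists were also highest in that rat of its group. The summed FPKM of the natural killer cell markers was 71.4, 52.5 and 217 in Emo-6h, and that of the T cell markers was 47.1, 50.8 and 119.98. In Con-24h the sums were 134, 63.5 and 20.7 for natural killer cells and 131, 80.6 and 27.7 for T cells, again highest in the rat with the highest members. The plasmacytoid dendritic cell sum was 36.9, 31.5 and 49.3 in Emo-6h and 40.3, 27.2 and 24.35 in Con-24h, and the macrophage and monocyte sum was 170.3, 212 and 277 in Emo-6h and 171, 164 and 161 in Con-24h, each highest in the same rats. The B cell and plasma cell sum was 46.7 in Emo-6h replicate 3, within the 35.8 and 53.0 of the other rats. The neutrophil sum was 1314 there against 3516 and 3751, the lowest of its group, whereas in Con-24h replicate 1 it was 953 against 98.6 and 183, the highest of its group. Gzmb, a defining gene of cytotoxic cells, was at 0 in Emo-6h replicate 3 and at 0.33 FPKM in Con-24h replicate 1. It was at 0 in every rat of Sham-6h, Con-6h, DEX-6h, Sham-24h, SAP-24h and Emo-24h too, so its level does not set these rats apart. The part of these cells in the result was not tested.

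**Figure D5:**
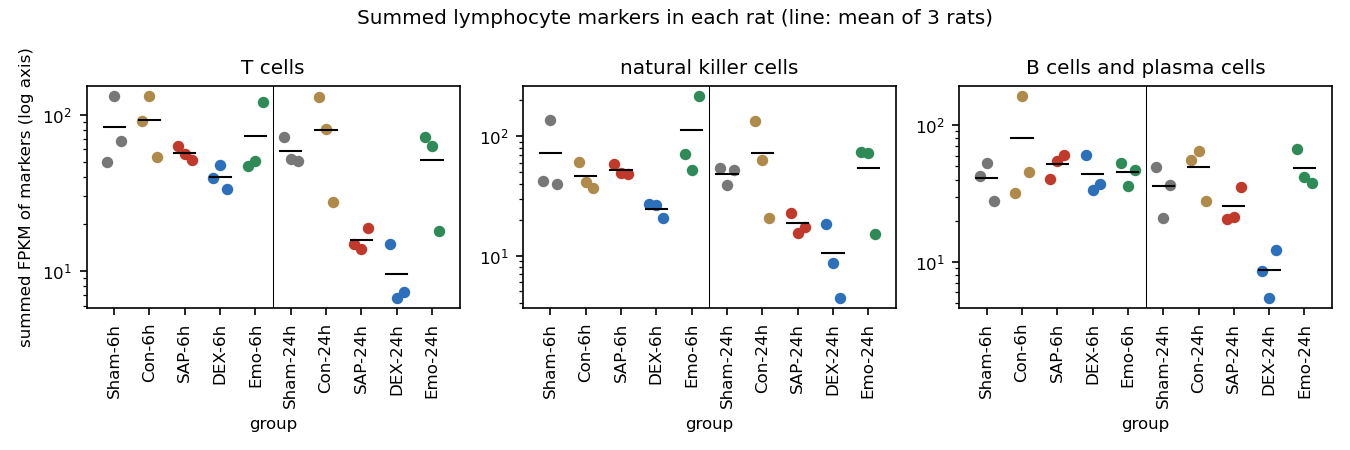
Summed FPKM (y axis, log scale) of T cell, natural killer cell and B cell and plasma cell markers in each rat (points, coloured by treatment) by group, with the mean of 3 rats as a line. Emo-6h replicate 3 and Con-24h replicate 1 are the highest of their groups for T cells (119.98 and 131) and natural killer cells (217 and 134), and the DEX-24h rats are low in all 3 panels.

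Dexamethasone at 6 h gave no call in the members. The median log2 fold change in DEX-6h against SAP-6h was -0.44, with 36 of 44 negative (-0.75 without DEX-6h replicate 1, -0.22 without DEX-6h replicate 2, -0.28 without DEX-6h replicate 3 and -0.21 without SAP-6h replicate 2), where 0.515% of genes were called in either direction. Irf1 had the smallest p, with 26.5, 24.3 and 25.4 FPKM in DEX-6h and 39.3, 41.2 and 40.3 FPKM in SAP-6h. The groups lay well apart, but the log2 fold change of -0.67 (SE 0.27, adjusted p = 0.298 by edgeR) did not pass. It was the 1 member lower at an unadjusted p under 0.05, which 12.1% of all genes reached, and DESeq2 called none. Some members went the other way in DEX-6h replicate 1, where Isg15 was 60.0 FPKM against 5.66 and 9.99 FPKM in the other rats and Irf7 was 140.4 FPKM against 18.9 and 50.9 FPKM.

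Between the pancreatitis model and Sham no member was called. In SAP-6h against Sham-6h edgeR called none, where 0.22% of genes were called. The median log2 fold change was 0.18, with 35 of 44 positive, and its direction rested on single rats. It was -0.03 with 20 positive without SAP-6h replicate 2, -0.01 with 21 positive without Sham-6h replicate 3, 0.03 without Sham-6h replicate 1 and 0.52 without Sham-6h replicate 2. No member reached an unadjusted p under 0.05, which 13.1% of all genes did, and DESeq2 called none. The smallest p was that of Trim25, a ligase that activates RIG-I, with 7.45, 9.92 and 10.7 FPKM in SAP-6h and 5.69, 8.59 and 7.3 FPKM in the Sham-6h rats (log2 fold change 0.42, SE 0.24, adjusted p = 0.473 by edgeR). In SAP-24h against Sham-24h the median was 0.26 with 29 of 44 positive, and it turned to -0.51 with 31 of 44 negative without SAP-24h replicate 1 (0.17 to 0.59 without another rat). Neither edgeR nor DESeq2 called a member, where they called 5.0% and 4.27% of genes. At an unadjusted p under 0.05, which 28.4% of all genes reached, 1 member was higher. That was Irf1, with 65.7, 32.6 and 39.0 FPKM in SAP-24h and 39.7, 26.2 and 33.3 FPKM in the Sham-24h rats (log2 fold change 0.62, SE 0.27, adjusted p = 0.135 by edgeR). The values of the groups overlapped. Without the 3 high rats, Psmb8 was called lower in SAP-24h than in Sham-24h, with a log2 fold change of -1.16, where 2.92% of all genes were called. Of the marker lists, 4 of 6 T cell (median log2 fold change -1.86), 2 of 6 natural killer cell, 1 of 4 plasmacytoid dendritic cell and 1 of 5 alveolar type 1 markers were called lower in SAP-24h than in Sham-24h and 1 of 6 macrophage and monocyte markers higher, and their part was not tested. The change of the SAP effect with time gave no call (0.0314% of genes), no member at an unadjusted p under 0.05 (12.6% of all genes reached it) and none with DESeq2 (0.511%). The smallest p was that of Lgals3bp (log2 difference between the fold changes -1.53, SE 0.88, adjusted p = 0.499 by edgeR).

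The saline controls were compared with Sham in the same way. In Con-6h against Sham-6h no gene was called (0.0%), no member reached an unadjusted p under 0.05 (8.61% of all genes did), and DESeq2 called no member. The median log2 fold change of the members was -0.13 (0.23 without Sham-6h replicate 2, and -0.32 to -0.12 without another rat). The smallest p was that of Oas3, at 0.68, 1.98 and 1.43 FPKM in Con-6h and 1.1, 5.42 and 0.53 FPKM in the Sham-6h rats (log2 fold change -0.81, SE 0.76, adjusted p = 0.846 by edgeR). In Con-24h against Sham-24h the median was 0.76, and neither tool called a member, where edgeR called 1.0% and DESeq2 0.882% of genes. Only Tap1 was under an unadjusted p of 0.05, as were 27% of all genes. Tap1 had 62.9, 15.1 and 10.5 FPKM in Con-24h and 13.2, 13.4 and 11.1 FPKM in the Sham-24h rats (log2 fold change 1.24, SE 0.56, adjusted p = 0.151 by edgeR). The high value was that of replicate 1. Without it no member was called, and the median log2 fold change of the members was -0.65 (0.66 to 1.13 without another rat). Beside this, 3 of 6 neutrophil markers were called lower in Con-24h than in Sham-24h (median log2 fold change -2.76), and their part was not tested.

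Between the times, 1 member was called in 1 group. Oas3 fell from 8.16, 2.18 and 3.26 FPKM in DEX-6h to 0.89, 0.68 and 0.74 FPKM in DEX-24h, with no overlap and a log2 fold change of -2.54 (SE 0.79, adjusted p = 0.021 by edgeR), where 3.91% of genes were called lower. The call was kept without DEX-6h replicate 2 or 3 and lost without DEX-6h replicate 1 or any DEX-24h rat. Without the 3 high rats 7 members were called lower, Oas3 with Bst2, Irf7, Isg15, Lgals3bp, Oasl and Zbp1, where 7.58% of all genes were called. With the compared groups alone 4 were, Oas3, Bst2, Irf7 and Zbp1 (7.03%). Of the marker lists, 6 of 6 T cell, 5 of 5 B cell and plasma cell and 2 of 4 plasmacytoid dendritic cell markers were called lower in DEX-24h than in DEX-6h, and 1 marker each of macrophages and monocytes, alveolar type 2 cells and endothelial cells higher. The T cell sum was 39.5, 47.9 and 33.35 in DEX-6h and 14.8, 6.69 and 7.32 in DEX-24h, and its part was not tested. In Sham-24h against Sham-6h neither tool called a member (0.257% of genes by edgeR and 0.755% by DESeq2), and none reached an unadjusted p under 0.05 (20.4% of all genes did). Oas3 had the smallest p there, at 0.86, 0.84 and 0.99 FPKM against 1.1, 5.42 and 0.53 FPKM (log2 fold change -1.35, SE 0.77, adjusted p = 0.335 by edgeR). In Con-24h against Con-6h neither called a member (0.00628% of genes by edgeR and 0.476% by DESeq2), and 6 were higher at an unadjusted p under 0.05 (10.5% of all genes reached it), with Mx1 first at 136, 3.2 and 1.84 FPKM against 3.09, 5.19 and 2.51 FPKM (log2 fold change 3.78, SE 1.49, adjusted p = 0.356 by edgeR). The median log2 fold change of the members was 0.95 with 40 of 44 positive. It turned to -0.38 with 39 of 44 negative without Con-24h replicate 1 (0.90 to 1.27 without another rat). Members at that p numbered 1 without Con-24h replicate 1, 19 without replicate 2 and 18 without replicate 3 of that group, and 1 to 2 without a Con-6h rat. In SAP-24h against SAP-6h neither called a member (2.42% of genes by edgeR and 2.59% by DESeq2), and Lgals3bp alone was lower at an unadjusted p under 0.05 (24.8% of all genes reached it), with 45.4, 29.3 and 25.3 FPKM against 95.1, 114 and 104 FPKM (log2 fold change -1.53, SE 0.63, adjusted p = 0.14 by edgeR). In the same comparison 3 of 6 T cell (median log2 fold change -1.70) and 3 of 4 red blood cell markers (-2.61) were called lower in SAP-24h, and their part was not tested.

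In Emo-24h against Emo-6h neither tool called a member, where edgeR called 9.41% and DESeq2 6.91% of genes. None reached an unadjusted p under 0.05, which 44.1% of all genes did. The median log2 fold change of the members was -0.15, with 15 of 44 positive (0.13 without Emo-24h replicate 2). Without Emo-6h replicate 3 all 44 were positive, with a median of 1.73, and 20 members were called higher at 24 h, with a median log2 fold change of 2.25 over those called, where 8.29% of all genes were called. Of these 20, 7 had negative fold changes with all rats. Without Emo-6h replicate 2, Lgals3bp and Tap1 were called lower (10.8% of genes), and without Emo-24h replicate 3, Ifit1 was (7.93%). Of the marker lists, 4 of 4 red blood cell markers (median log2 fold change -3.41), 3 of the 7 rows of glucocorticoid targets and 1 of 4 endothelial markers were called lower in Emo-24h than in Emo-6h and 1 of 6 alveolar type 2 markers higher, and their part was not tested. Lgals3bp had the smallest p with all rats, at 176, 76.4 and 107 FPKM in Emo-24h and 82.7, 85.0 and 666 FPKM in Emo-6h (log2 fold change -1.28, SE 0.63, adjusted p = 0.118 by edgeR). The change with time of the DEX effect (0.138% of genes called by edgeR and 0.755% by DESeq2) and of the emodin effect (1.68% and 2.63%) gave no call with either tool and no member at an unadjusted p under 0.05. That p was reached by 13.6% of all genes for DEX and by 23.4% for emodin. Bst2 had the smallest p in both, with a log2 difference between the fold changes of -1.66 for DEX (SE 0.82, adjusted p = 0.378 by edgeR) and of -1.06 for emodin (SE 0.81, adjusted p = 0.45 by edgeR). For the emodin effect the median log2 difference on all rats was -0.35, with 11 of 44 positive, and it turned to 1.63 without Emo-6h replicate 3 and to 0.49 without SAP-24h replicate 1. Without the 3 high rats it was 2.34, all 44 were positive, and 21 members were called, 12 of them negative on all rats, where 1.17% of all genes were called.

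Ifit1, a sensor of viral RNA caps, did not follow the other members. It had 0.62, 0.62 and 90.2 FPKM in Emo-24h, whereas Ifit3 had 101, 26.6 and 206 FPKM in the same rats. In Con-24h replicate 1 it had 0.26 FPKM, below the 0.28 FPKM of replicate 3, whereas Ifit2 had 70.5 FPKM there. In SAP-24h replicate 1 it had 0.21 FPKM against 84.2 FPKM for Ifit3. Its 4 highest values were in Sham-6h replicate 2 (23.3 FPKM), DEX-6h replicate 1 (25.6 FPKM), Emo-6h replicate 3 (112 FPKM) and Emo-24h replicate 3 (90.2 FPKM), with 6.83 FPKM or less elsewhere. The lowest member count in any library, 8 reads, was also in Ifit1.

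Upstream of these genes, the ligands were at the edge of detection. Ifnb1, which encodes interferon beta, had 1 read in 1 of 30 libraries. Ifng, which encodes interferon gamma, had 26 reads in all, in 16 libraries and at most 4 in any. Ifne, Ifnk, Ifna2 and Ifnl3 had at most 2 reads in a library. No level can be given for these genes at this depth.

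Of the receptors, Ifnar1 lay between 24.9 and 41.7 FPKM and Ifngr1 between 122 and 278 FPKM, with the highest Ifngr1 values in DEX-24h (219, 269 and 278 FPKM), and no receptor was called in any comparison. Of 41 genes listed for the pathway 37 had a row and 31 were tested.

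In Emo-24h against DEX-24h 6 of the 31 were called higher and none lower, with a median log2 fold change of 0.19. Among those called were the DNA sensor Mb21d1 (1.52), the transcription factors Irf5 (1.42) and Irf8 (1.56) and the chemokines Cxcl9 (3.00) and Ccl5 (2.00), each given as a log2 fold change. Irf8 was also counted among the plasmacytoid dendritic cell markers. In Emo-6h against DEX-6h 3 were called higher, the RNA sensor Tlr3 (1.39), Irf5 (1.61) and Cxcl10 (6.94), a chemokine that draws T cells. Cxcl10 had 1.95, 1.0 and 268 FPKM in Emo-6h and 0.42, 0.84 and 0.97 FPKM in DEX-6h, with the high value in replicate 3. It was 90.5 FPKM in Con-24h replicate 1 against 1.19 and 0.45 FPKM.

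Socs3, which restrains JAK signalling and is induced by interleukin 6, moved apart from the members. It had 287, 104 and 89.6 FPKM in SAP-24h and 17.5, 9.79 and 33.1 FPKM in the Sham-24h rats, a log2 fold change of 3.16 (SE 0.56, adjusted p = 0.00167 by edgeR). It was lower in DEX-24h (log2 fold change -3.14) and in Emo-24h (-1.79) than in SAP-24h, both called. The adaptor Myd88 was also higher in SAP-24h than in Sham-24h (log2 fold change 1.02), Irf5 was lower in DEX-24h than in SAP-24h (-1.30), and Tlr3 was higher in Emo-24h than in SAP-24h (1.07). Between DEX-24h and DEX-6h, Tlr3 was higher (1.12) and Socs3 (-1.45) and Ccl5 (-2.04) were lower. In DEX-24h against Sham-24h, Irf8 (-1.23), Cxcl9 (-3.32) and Ccl5 (-2.28) were lower. In the other comparisons none of the 31 was called.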

How the data were processed

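RNA-seq libraries were made from poly(A) RNA of 30 rat lungs. Per the study's methods, the authors clipped adaptors, used TopHat2 to place reads on the Ensembl rat genome (rat_ensembl_v6), discarded reads that mapped to more than 1 place, and deposited read counts per gene with replicates kept apart. The counting program is not given in the sources used here. The authors computed the deposited FPKM values from the same reads. Discarding such reads lowers genes with near-identical copies, including several members. In some libraries, such as DEX-6h replicate 1, the deposited counts add up to more than the uniquely mapped reads in the study's supplement. The discarding step could therefore not be checked from the counts.

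The list of members, the pathway and marker lists and the tests were chosen with earlier results of these data known. Counts were fitted in R 4.3.3 with edgeR 4.0.16 (filterByExpr with a minimum count of 10 and a total of 15, TMM scaling, quasi-likelihood test) in 1 model of 10 groups over 30 libraries, with 20 residual degrees of freedom. P-values were adjusted by Benjamini-Hochberg over all 15934 genes tested. The 18 planned comparisons were joined by 2 chosen after the data were seen, Emo-24h and DEX-24h each against Sham-24h. The scripts were tested on simulated data.

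Levels were compared as log2(FPKM + 1). Reads on genes of 16813949 to 34692306 per library left at least 8 reads for every member in every library. Values in every rat were given for called members, or for the 3 highest and 3 lowest fold changes where more than 6 were called, and for the member with the smallest p where none was. Members with a mean of at least 20 FPKM were named with their levels. Of the pathway list, called genes and Ifnb1 and Ifng were named, and 1 gene is not reported here. Genes named outside this rule (Ifit1 to Ifit3, Isg15, the receptors, Cxcl10 in other groups and the members called only under an alternative) were chosen after their values were seen. Alternatives were DESeq2 1.42.0, RLE scaling, other filters and thresholds, the compared groups alone, a replicate block and leaving out rats. Same-numbered samples were checked for shared deviations. In DEX-24h against DEX-6h all 3 pairs correlated above 0.1 (0.212, 0.221 and 0.23), a pairing that comes from the values and not from the labels. Python 3.11.15 with pandas 2.3.3, numpy 2.4.6 and matplotlib 3.10.9 served for summaries and plots. RefSeq promoter windows (GRCr8) were matched by symbol, and no other genome coordinates were used.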

Additional observations from a re-analysis of the deposited data

Results flagged for a closer look

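Lgals3bp lay on opposite sides of Sham at the 2 times, although neither difference passed the test (log2 fold change 0.73, SE 0.62, adjusted p = 0.683 at 6 h and -0.80, SE 0.62, adjusted p = 0.422 at 24 h, by edgeR). It had 95.1, 114 and 104 FPKM in SAP-6h and 55.4, 55.7 and 83.4 FPKM in Sham-6h, so that every SAP-6h rat was above the Sham-6h mean, by 0.70 on average on the log2(FPKM + 1) scale. At 24 h it had 45.4, 29.3 and 25.3 FPKM in SAP-24h and 49.8, 96.9 and 44.7 FPKM in Sham-24h, and every SAP-24h rat was below the Sham-24h mean, with an average difference of -0.87. The effects at the 2 times lay 1.58 apart on that scale. The change of the SAP effect with time was tested in the model of all genes and did not pass (log2 fold change -1.53, SE 0.88, adjusted p = 0.499 by edgeR).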

How the results depend on the processing

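Emo-24h above DEX-24h was the comparison in which some members, though not the same ones, were called under every alternative run. Without DEX-24h replicate 3 only 1 was, near the share of all genes (2.53%). No member called on all rats changed direction under any alternative. Members not called on all rats did, and of those called without Emo-6h replicate 3, 7 of 20 in Emo-24h against Emo-6h had the opposite sign on all rats. This held, with the 3 high rats left out, for 14 of 29 there, for 12 of 21 in the change of the emodin effect with time and for 1 of 33, Bst2, in Emo-24h against SAP-24h. The percent in brackets after a count of members is the share of all genes called in that fit in either direction. With DESeq2 the members called were 34 in Emo-24h against DEX-24h (4.29%), 5 in Emo-24h against SAP-24h (3.05%), 22 in Emo-6h against DEX-6h (1.69%) and 3 in DEX-24h against SAP-24h (3.43%). With a filter of at least 1 CPM in 3 libraries, 2 were called in DEX-24h against SAP-24h (3.87%). With the compared groups alone in the fit, 39 were called in Emo-24h against DEX-24h (5.4%), 4 in DEX-24h against DEX-6h (7.03%), 4 in DEX-24h against Sham-24h (3.47%), 1 in SAP-24h against SAP-6h (1.19%), and 0 in each of Emo-24h against SAP-24h (0.0%), Emo-6h against DEX-6h (0.597%) and DEX-24h against SAP-24h (1.49%). The cause was not tested.

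Without Emo-6h replicate 3 and Con-24h replicate 1, a choice made with the values in view, 40 members were called in Emo-24h against DEX-24h (5.66%), 24 in Emo-24h against Emo-6h (8.44%), 14 in Emo-24h against SAP-24h (3.71%), 5 in DEX-24h against SAP-24h (4.03%), 2 in each of DEX-24h against DEX-6h (7.32%) and against Sham-24h (4.39%), 1 in SAP-24h against SAP-6h (2.7%), 1 for the change of the emodin effect with time (0.353%), and 0 in Emo-6h against DEX-6h (1.05%). Without SAP-24h replicate 1 as well, also chosen after seeing the data, they were 41 in Emo-24h against DEX-24h (6.02%), 33 in Emo-24h against SAP-24h (2.77%), 29 in Emo-24h against Emo-6h (9.13%), 21 for the change of the emodin effect with time (1.17%), 17 in Emo-24h against Sham-24h (0.186%), 7 in each of DEX-24h against DEX-6h (7.58%) and against Sham-24h (4.85%), 2 in SAP-24h against SAP-6h (2.02%), 1 in SAP-24h against Sham-24h (2.92%), 1 in Emo-6h against DEX-6h (1.33%) and 0 in DEX-24h against SAP-24h (3.2%). At an unadjusted p under 0.05 with a 2-fold change, the counts were 41 in Emo-24h against DEX-24h (8.32%), 34 in Emo-6h against DEX-6h (5.23%), 28 in Emo-6h against SAP-6h (2.85%), 28 in Emo-24h against Sham-24h (1.3%), 17 in Emo-24h against SAP-24h (7.42%), 6 in DEX-24h against SAP-24h (7.27%), 6 in Con-24h against Con-6h (3.4%), 2 in DEX-24h against Sham-24h (7.63%), and 1 in each of Con-24h against Sham-24h (2.92%), SAP-24h against SAP-6h (6.72%) and DEX-24h against DEX-6h (9.36%).

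Leaving out 1 rat of the compared groups gave 1 to 12 called members in Emo-24h against DEX-24h (2.39 to 5.52%), 0 to 20 in Emo-24h against Emo-6h (6.94 to 10.8%), 0 to 19 in Emo-6h against DEX-6h (0.279 to 1.72%), 0 to 3 in DEX-24h against SAP-24h (2.09 to 3.93%), 0 to 1 in Emo-24h against SAP-24h (0.843 to 3.23%) and 0 to 1 in DEX-24h against DEX-6h (5.1 to 6.37%), and 0 in the other comparisons. The 1 in Emo-24h against SAP-24h was Psmb8. With the replicate number as a block (replicate block), 0 members were called in DEX-24h against SAP-24h (3.61%), 16 in Emo-24h against DEX-24h (4.76%) and 3 in Emo-6h against DEX-6h (1.22%), and the 1 call in each of Emo-24h against SAP-24h and DEX-24h against DEX-6h was kept. The labels give the samples only a number. In 16 of 17 comparisons not every same-numbered pair correlated above 0.1 (range -0.363 to 0.359), the exception being DEX-24h against DEX-6h, and 10 of 30 libraries correlated best with their own number.

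With 3 rats a group, and with 1 rat far from the others in each of Emo-6h and Con-24h, an absent call does not show that a level was equal. RLE scaling gave 21 of the 22 calls in Emo-24h against DEX-24h (5.02%), Bst2 excepted.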
